A study of Arabidopsis thaliana with 44 samples.

Results

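A set of 86 Arabidopsis thaliana genes had a low transcript signal 1.5 h after irradiation with HZE particles, beside unirradiated and gamma-irradiated seedlings. This held in wild type (WT) and in atm-1, which lacks normal function of the kinase ATM. HZE radiation consists of accelerated heavy nuclei of high energy and deposits its energy densely along each track, whereas gamma rays deposit it sparsely. A gene belonged to the set when its mean log2 signal at HZE 1.5 h lay at least 1.5 below gamma 6 h and at least 1.5 below the unirradiated seedlings of day 1, in both genotypes. Of 13355 genes with a usable probe set, 90 met these 4 thresholds, and 4 of them (GSTU20, BCAT4, EXPA8 and EXPB3) were left out by name under the rule, so that 86 remained. The genes were thus chosen by their values at HZE 1.5 h, gamma 6 h and unirradiated day 1, which are given below as a description without a test. Every test rests on other arrays.

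The study profiled whole seedlings of WT and atm-1 on 44 single-colour Affymetrix arrays, in 22 groups with 2 arrays each. Seedlings of 5 days received 100 Gy of gamma rays at 7 Gy per min or 30 Gy of HZE, here accelerated iron nuclei, at 2.5 Gy per min, and the control seedlings received no radiation. WT was sampled at 1.5, 3, 6, 12 and 24 h after each radiation and atm-1 at 1.5, 6, 12 and 24 h, with unirradiated seedlings of both genotypes on days 1 and 2. Gamma seedlings were harvested at 10:10 am for the 1.5 h group, 11:40 am for 3 h, 2:55 pm for 6 h, 8:40 pm for 12 h and 8:40 am for 24 h. HZE seedlings were harvested at 2:39 pm for 1.5 h, 4:09 pm for 3 h, 7:24 pm for 6 h, 1:09 am for 12 h and 1:09 pm for 24 h. The controls were harvested at 10:45 am (day 1) and 9:15 am (day 2), and seedlings of the 24 h and day 2 groups were 6 days old. Gamma 6 h and HZE 1.5 h thus fell at nearly the same clock time, as did gamma 12 h and HZE 6 h. Both radiations were given at separate facilities, HZE in 2 runs, and no unirradiated seedlings carried to the HZE facility were analysed here, so radiation quality, dose and handling cannot be told apart. ATM has no single-gene probe set in the annotation used, so its transcript gives no check of the genotype. Each array held RNA pooled from 30 to 40 plants, and separate cultures are not stated for the 2 arrays of a group, so p-values measure the spread between these samples.

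ATM is the kinase that starts the transcriptional response to double-strand breaks in plants, largely through the transcription factor SOG1. Besides inducing repair genes, irradiated seedlings slow their growth, which depends on enzymes of the cell wall and on the supply of carbon, sulfur and nitrogen. Transcript levels of many such genes also follow the day, the light and the supply of sugar, which is why the clock time of each sample stands beside each comparison.

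Array medians ran from 5.73 to 5.98 on the log2 scale, and arrays of a group correlated at 0.990 to 0.997 over all probe sets. The atm-1 gamma 6 h replicate 1 array had the lowest median, 5.73, and its group had the lowest correlation between replicates. This array entered the rule: without it 95 genes qualified, the 86 among them, and without its partner 76 did. The next lowest medians were those of all 6 arrays of WT HZE 3 h, WT HZE 1.5 h and atm-1 HZE 1.5 h, from 5.819 to 5.835, and the remaining arrays lay at 5.896 or above. The groups in which the set was low thus also had low array medians. After cyclic loess or quantile normalisation, 86 of the 86 genes were called lower at WT HZE 3 h, but the share of all genes was not taken under these settings. The part of the array medians in the falls was not tested.

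Of the 86 genes, 14 carry a gene symbol and 72 are known here by locus code, to which no role is given, except that the gene table lists AT3G21670 as NPF6.4. By chromosome, 28 lie on chromosome 1, 6 on chromosome 2, 23 on chromosome 3, 12 on chromosome 4 and 17 on chromosome 5. AT5G19240 and AT5G19250 are direct neighbours, and 2 protein-coding genes separate AT5G37990 from AT5G38020. Each gene was read by 1 probe set, and 85 of the 86 had a mean log2 signal of at least 5 over all arrays.

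The values that defined the set show how deep the fall was. From day 1 to HZE 1.5 h the median change over the 86 genes was -2.53 in WT and -2.20 in atm-1 on the log2 scale. The median change over all genes was 0.00 and 0.02. The median level of all genes was 5.45 on day 1 and 5.37 at HZE 1.5 h in WT, and 5.43 and 5.34 in atm-1. By the mean of both genotypes AT3G44970 fell furthest, by 3.70 on the log2 scale, from 8.40 and 8.38 in WT on day 1 to 4.71 and 4.93 at HZE 1.5 h, and in atm-1 from 7.98 and 8.30 to 4.45 and 4.18. AT1G06830 read 8.93 and 8.99 in WT on day 1 and 4.98 and 5.19 at HZE 1.5 h, against 8.95 and 9.00 and 5.79 and 5.68 in atm-1. In neither gene did the arrays of the groups overlap, which the thresholds largely ensure. GH9C2, a glycosyl hydrolase of the family of plant endoglucanases that act on cell wall glucans, read 8.87 and 8.86 and then 5.13 and 5.18 in WT, and 8.71 and 8.75 and then 5.68 and 5.07 in atm-1. AT3G09440, AT1G65870, AT5G19240, AT3G48460, AT1G06000, AT5G42760 and AT5G15950 complete the 10 deepest falls by that mean, with WT changes of -3.79, -3.51, -3.52, -3.52, -3.80, -3.43 and -3.04 in that order and atm-1 changes of -3.19, -3.38, -3.23, -3.18, -2.89, -3.23 and -3.24. In WT alone the order differs: AT5G37990 (-3.64) and AT5G45950 (-3.61), named after their values were seen, fell further there than AT5G42760 and AT5G15950. The threshold cut through a continuous range: just inside it lay AT2G19650, AT3G02910 and AT1G65870, whose smallest of the 4 falls were -1.548, -1.53 and -1.524, and just outside it lay APS3, AT5G10130 and AT3G06035 at -1.497, -1.492 and -1.492. APS3, an ATP sulfurylase of sulfate assimilation, thus missed the set by its WT difference from gamma 6 h alone.

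**Figure D1:**
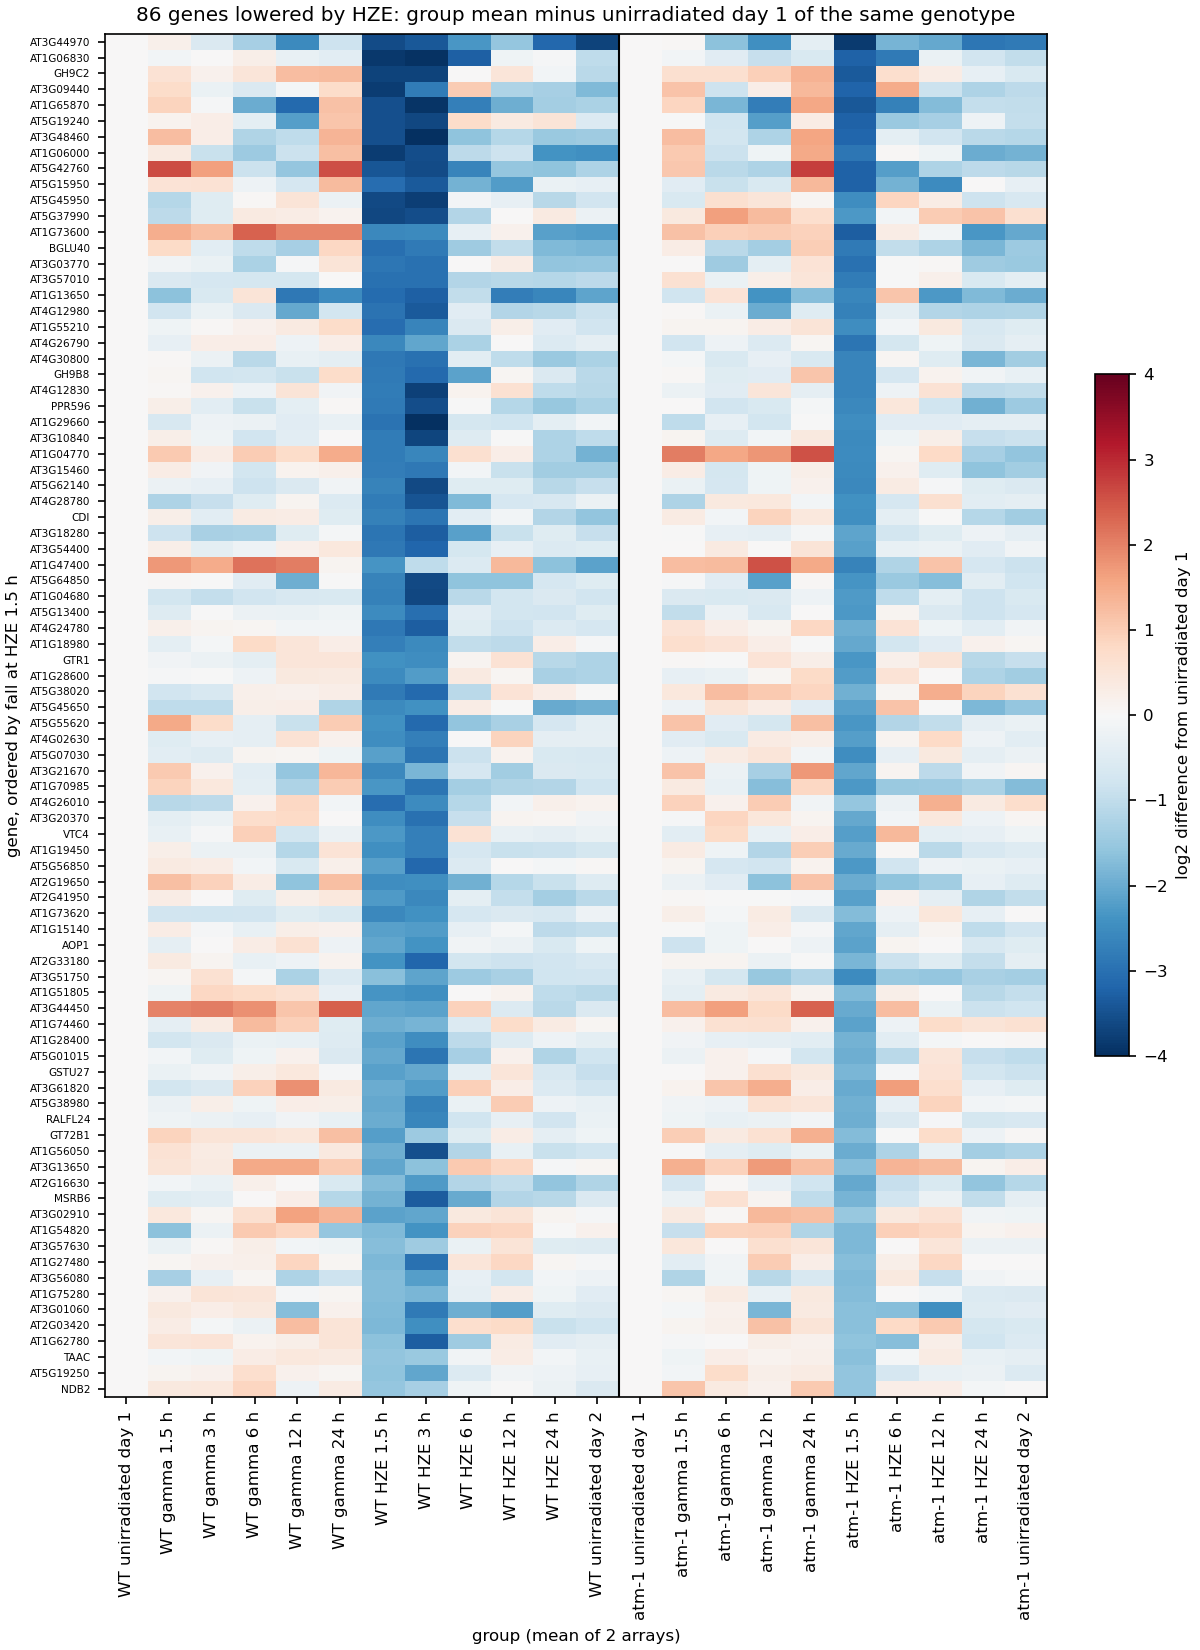
Group means of the 86 genes minus unirradiated day 1 of the same genotype (colour, log2), with genes as rows in order of their fall at HZE 1.5 h and the 22 groups as columns. The columns for HZE 1.5 h, which chose the genes, and for WT HZE 3 h are blue throughout, with medians of -2.53 (WT) and -2.20 (atm-1) at 1.5 h and -2.86 at 3 h, while the gamma columns up to 12 h scatter around 0.

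Over time the set returned in part by 6 h, and its median stayed near the day 1 level after gamma. As medians of the group means minus day 1, which share the rule's control and are a description, WT read -2.86 at HZE 3 h, -0.55 at 6 h, -0.28 at 12 h and -0.65 at 24 h. In atm-1 the medians were -0.14 at HZE 6 h, -0.08 at 12 h and -0.64 at 24 h. After gamma they stayed between -0.14 and 0.06 up to 12 h in both genotypes, and read 0.14 in WT and 0.25 in atm-1 at 24 h. Unirradiated seedlings themselves were lower on day 2 than on day 1, by a median of -0.68 in WT and -0.56 in atm-1, so the 24 h values after HZE lie close to the day 2 controls.

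At 3 h after irradiation, all 86 genes were lower after HZE than after gamma in WT, each by at least 2-fold. The arrays at 3 h were not used to choose the genes, and no atm-1 arrays were taken at this time. All 86 passed the test (limma, Benjamini-Hochberg adjusted p under 0.05 over 13355 genes), against 20.0% of all genes lower and 22.1% higher. The median change was -2.68, with a range from -5.21 to -1.32, and the median over all genes was 0.05. HZE 3 h was sampled at 4:09 pm and gamma 3 h at 11:40 am, so clock time and radiation cannot be told apart in this contrast. Both HZE 3 h arrays also lay below all 8 arrays of WT gamma 1.5, 3, 12 and 24 h for 86 of the 86 genes, as they did for 18.7% of all genes. These gamma arrays were taken at 10:10 am, 11:40 am, 8:40 pm and 8:40 am, none of them in the afternoon. Gamma 6 h (2:55 pm), which the rule used, was left out, so this count does not separate clock time from radiation either.

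Among the 86, the measured difference was steepest for AT5G42760. It read 3.83 and 3.77 after HZE against 8.39 and 9.62 after gamma, a change of -5.21 (SE 0.24, adjusted p = 1.84e-17). AT3G48460 read 4.87 and 4.43 after HZE against 9.13 and 9.51 after gamma (-4.67, SE 0.17, adjusted p = 7.43e-20), and AT3G44450 read 4.08 and 4.56 after HZE against 8.20 and 8.82 after gamma (-4.19, SE 0.20, adjusted p = 5.62e-17). In all 3 genes both HZE arrays were low and both gamma arrays high, without overlap. At WT HZE 3 h 46 of the 86 genes read below the median of all genes, against 0 at gamma 3 h. No detection calls were used here, so such low values are not shown to lie above background, and the size and order of the steepest changes are uncertain. The smallest change among the 86 was that of TAAC, a carrier of ATP and ADP in the thylakoid membrane, which read 5.42 and 5.06 after HZE against 6.74 and 6.38 after gamma, a change of -1.32 (SE 0.17, adjusted p = 1.17e-07).

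Cell wall and secreted proteins were among the annotated members. GH9C2 read 5.07 and 5.28 after HZE against 9.10 and 9.01 after gamma, a change of -3.88 (SE 0.15, adjusted p = 6.71e-19). GH9B8, of the same glycosyl hydrolase family, read 3.70 and 3.87 after HZE against 6.70 and 5.51 after gamma, a change of -2.32 (SE 0.23, adjusted p = 5.99e-10). BGLU40, a beta-glucosidase, read 4.31 and 4.04 after HZE against 7.00 and 6.15 after gamma, a change of -2.40 (SE 0.24, adjusted p = 4.6e-10). The 3 hydrolases thus shared a fall of at least 4-fold, with no overlap between the radiations. RALFL24, a small secreted peptide of the RALF family that signals at the cell surface, read 4.86 and 4.78 after HZE against 7.41 and 7.03 after gamma, a change of -2.40 (SE 0.12, adjusted p = 1.67e-16). Of the expansins, which loosen the cell wall, EXPA8 and EXPB3 met the thresholds and were left out by name, with WT falls from day 1 to HZE 1.5 h of -2.85 and -3.33.

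The next 5 annotated members are enzymes of other kinds and a gene named for a metal, and no theme among them was tested. MSRB6, a methionine sulfoxide reductase that repairs oxidised methionine in proteins, read 6.49 and 6.52 after HZE against 9.62 and 9.16 after gamma, a change of -2.89 (SE 0.14, adjusted p = 2.66e-17). VTC4, a phosphatase of ascorbate synthesis, read 6.49 and 6.33 after HZE against 9.70 and 8.54 after gamma, a change of -2.71 (SE 0.20, adjusted p = 7.45e-13). The gamma arrays of VTC4 lay more than 1 apart, as did those of GH9B8, and both were still above the HZE arrays. GSTU27, a glutathione S-transferase of the tau class, read 7.23 and 7.18 after HZE against 9.48 and 8.76 after gamma, a change of -1.91 (SE 0.16, adjusted p = 1.86e-11). GT72B1, a glucosyltransferase, read 7.32 and 7.16 after HZE against 8.78 and 9.61 after gamma, a change of -1.95 (SE 0.16, adjusted p = 1.59e-11). It is also named UGT72B1. The rule left out symbols starting with UGT but did not read synonyms, so this gene stayed in the set. CDI, named for its induction by cadmium, read 6.41 and 6.51 after HZE against 9.32 and 8.62 after gamma, a change of -2.51 (SE 0.21, adjusted p = 1.68e-11). The groups did not overlap in any of these 5 genes.

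The remaining annotated members include transporters and organelle proteins. GTR1, a transporter of glucosinolates (the sulfur-rich defence compounds of the cabbage family), read 5.09 and 4.90 after HZE against 7.29 and 7.17 after gamma, a change of -2.23 (SE 0.20, adjusted p = 5.16e-11). AOP1, a dioxygenase encoded in the locus whose relatives modify glucosinolate side chains, read 3.90 and 3.92 after HZE against 6.41 and 6.27 after gamma, a change of -2.43 (SE 0.16, adjusted p = 9.61e-14). AT3G21670, a transporter of the nitrate and peptide family also named NPF6.4, read 8.32 and 8.29 after HZE against 10.10 and 10.52 after gamma, a change of -2.00 (SE 0.12, adjusted p = 5.91e-15). All 3 were lower after HZE in both arrays. PPR596, a pentatricopeptide repeat protein of the kind that binds organelle RNA, read 5.27 and 5.23 after HZE against 8.43 and 8.36 after gamma, a change of -3.15 (SE 0.11, adjusted p = 3.91e-20). NDB2, an NAD(P)H dehydrogenase of the mitochondrial inner membrane, read 7.64 and 7.30 after HZE against 9.28 and 9.18 after gamma, a change of -1.76 (SE 0.17, adjusted p = 2.9e-10). Fewer cells of a type and less RNA per cell cannot be told apart in whole seedlings.

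**Figure D2:**
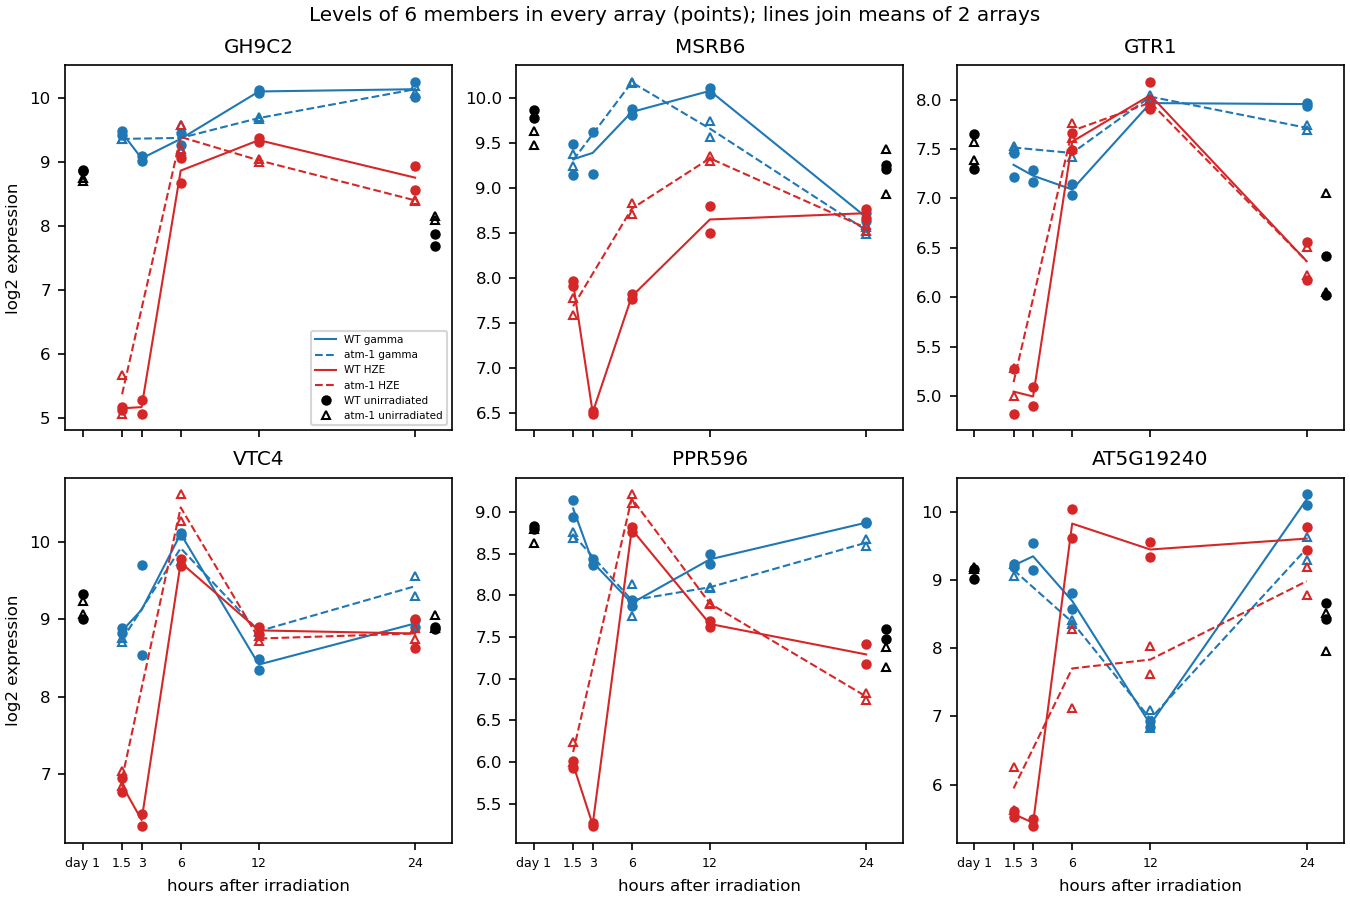
Log2 signal of 6 of the genes in every array (points, circles for WT and triangles for atm-1) against hours after irradiation, with lines joining the means of 2 arrays; black symbols are unirradiated seedlings of day 1 at the left and day 2 at the right. The red HZE lines start low in all 6 genes (GH9C2 at 5.13 and 5.18 in WT), and AT5G19240 separates WT from atm-1 at 6 h.

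The measured shoot markers and 1 of 2 measured root markers moved with this contrast. The summed linear signal of 3 photosynthesis genes (RCA, PRK and SBPASE) was 21165 to 21172 at HZE 3 h and 31565 to 33918 at gamma 3 h in WT, and all 3 genes were lower. That of 2 root genes (EXPA7 and PYK10) was 3129 to 3299 against 5636 to 5907, and 1 of the 2, PYK10, passed the test. EXPA7 changed by -0.05 (limma, adjusted p = 0.906). On the log2 scale PYK10 read 11.67 and 11.59 at WT HZE 3 h, and EXPA7 5.07 and 5.58. The root sum, here and below, thus reflects PYK10 almost alone. In the groups of the rule, the root sum was 3270 to 3323 at WT HZE 1.5 h against 7078 to 7711 at gamma 6 h, and the shoot sum 25543 to 26240 against 31375 to 31686. Array signals of this kind do not reach 0 and no detection calls were used, so presence or absence of a marker is not shown. The part of organ composition in the falls was not tested.

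In the evening of day 1, HZE 6 h (7:24 pm) was compared with gamma 12 h (8:40 pm), on arrays the rule had not used. In WT 47 of the 86 genes were lower after HZE and 9 higher, against 12.0% of all genes lower and 10.8% higher, and the median change was -0.52 where that of all genes was -0.04. In atm-1 34 were lower and 17 higher, against 9.4% and 10.2%, with a median of -0.24 against 0.03 for all genes. Members called lower were thus 54.7% in WT and 39.5% in atm-1, while members called higher were 10.5% in WT, near the background, and 19.8% in atm-1. The 2 genotypes shared 30 genes called lower, 63.8% of the WT calls and 88.2% of the atm-1 calls, and 9 called higher, 100.0% and 52.9%. Overlap between the genotypes was not counted over all genes, here or below, so it is not shown to be particular to the set. Hours after irradiation and dose also differ between these groups. The shoot sum was 20230 to 20777 at WT HZE 6 h against 27936 to 28864 at gamma 12 h, the root sum 3291 to 3533 against 8847 to 10009, and in atm-1 the sums were 22329 to 23867 against 27360 to 28458 and 3813 to 4314 against 8175 to 8495; their part in the counts was not tested.

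AT1G06830 was still low at this time in both genotypes, against day 1 as well as against gamma. AT1G06830 read 6.12 and 5.28 at HZE 6 h and 8.68 and 8.65 at gamma 12 h in WT, a change of -2.97 (SE 0.20, adjusted p = 1.8e-12), and in atm-1 6.34 and 5.92 against 8.07 and 8.07, a change of -1.93 (SE 0.20, adjusted p = 1.91e-08). AT1G47400 changed by -2.59 (SE 0.28, adjusted p = 1.42e-08) in WT and by -3.72 (SE 0.28, adjusted p = 3.59e-11) in atm-1, the deepest atm-1 change. Its gamma 12 h arrays were high (9.45 and 9.39 in WT and 10.62 and 10.44 in atm-1) beside day 1 (7.02 and 7.71, and 7.59 and 8.40), and the WT HZE 6 h arrays (7.19 and 6.47) overlapped those of day 1. MSRB6 read 7.77 and 7.82 against 10.05 and 10.11 in WT, a change of -2.29 (SE 0.14, adjusted p = 1.43e-13), and 8.83 and 8.71 against 9.75 and 9.57 in atm-1, a change of -0.89 (SE 0.14, adjusted p = 1.08e-05). In AT1G06830 and MSRB6 the arrays of the radiations did not overlap. AT1G62780 was the third deepest in atm-1 at -1.93 (adjusted p = 9.81e-11), with -1.66 in WT. Of the other annotated genes, GH9B8 (-1.27), GH9C2 (-1.24), GT72B1 (-0.93), GSTU27 (-0.81), AOP1 (-0.74), CDI (-0.72), RALFL24 (-0.67) and TAAC (-0.55) were lower in WT, and CDI (-1.28), GSTU27 (-0.67) and GT72B1 (-0.65) in atm-1. GTR1, BGLU40 and NDB2 did not pass the test in either genotype, with WT changes of -0.39, -0.11 and 0.03.

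Other members stood above the gamma level by the evening, where gamma 12 h itself lay below day 1 in the genes named as higher. VTC4 read 9.69 and 9.77 against 8.48 and 8.35 in WT, a change of 1.32 (SE 0.20, adjusted p = 5.43e-06), and 10.61 and 10.27 against 8.84 and 8.85 in atm-1, a change of 1.59 (SE 0.20, adjusted p = 3.78e-07). AT4G12980 was higher by 1.62 (adjusted p = 1.3e-06) in WT and 1.59 (adjusted p = 2.78e-06) in atm-1, and AT1G13650 by 1.84 (adjusted p = 3.75e-05) and 3.48 (adjusted p = 1.09e-09). NPF6.4 (AT3G21670), of the nitrate transporter family, was higher by 0.90 (adjusted p = 6.6e-07) and 1.42 (adjusted p = 2.27e-10), and PPR596 by 0.36 (adjusted p = 0.0155) and 1.06 (adjusted p = 1.43e-08). AT5G19240 was the highest of all in WT, with 10.04 and 9.62 against 6.93 and 6.84, a change of 2.94 (SE 0.24, adjusted p = 8.03e-11). Its direct neighbour AT5G19250, named after its values were seen, changed the other way in WT, by -0.71 (SE 0.11, adjusted p = 1.2e-05). The set that was low together at HZE 1.5 h thus lay on both sides of the gamma level in the evening.

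**Figure D3:**
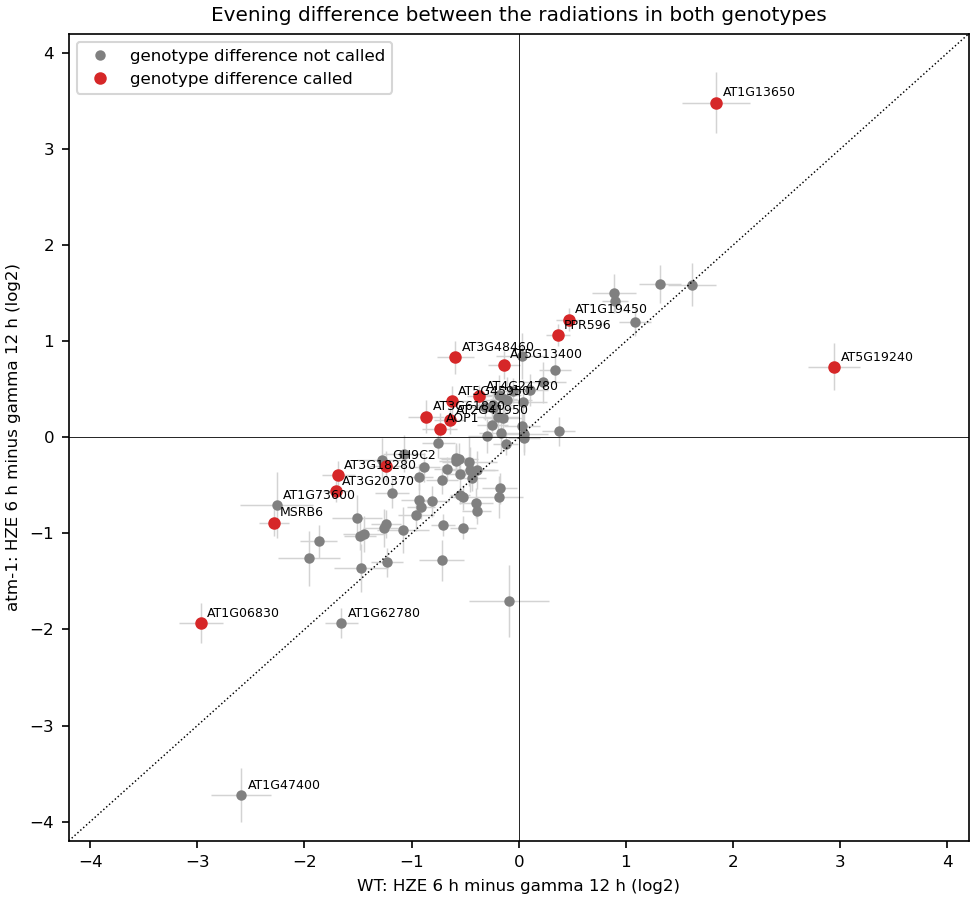
Log2 change of each of the 86 genes at HZE 6 h minus gamma 12 h in WT (horizontal axis) and atm-1 (vertical axis), with standard errors as bars and equality as the dotted line. Red points are the 16 genes whose change differed between the genotypes: 15 lie above the line, and AT5G19240 lies below it with 2.94 in WT and 0.73 in atm-1.

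The evening difference between the radiations was itself compared between the genotypes, by subtracting the atm-1 change from the WT change. It was negative for 15 of the 86 genes and positive for 1 at an adjusted p under 0.05, against 2.21% and 3.15% of all genes, with a median of -0.35 where all genes had -0.07. MSRB6 had a difference of -1.40 (SE 0.19, adjusted p = 1.08e-05): it was less low in atm-1 than in WT, as the values above show. AT3G48460 read 7.55 and 7.33 at HZE 6 h and 7.89 and 8.17 at gamma 12 h in WT, against 8.52 and 8.34 and 7.82 and 7.38 in atm-1, a difference of -1.42 (SE 0.24, adjusted p = 0.000163). In this gene HZE was lower than gamma in WT and higher than gamma in atm-1. For AT1G13650 the difference was -1.64 (SE 0.45, adjusted p = 0.0251), and it lost its call when any of the 8 arrays was left out. GH9C2 (-0.94), AOP1 (-0.83) and PPR596 (-0.70) were the other annotated genes among the 15. AT5G19240 went the opposite way, with 8.29 and 7.12 at HZE 6 h and 7.10 and 6.83 at gamma 12 h in atm-1 beside the WT values above, a difference of 2.21 (SE 0.35, adjusted p = 6.65e-05).

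Between the genotypes at HZE 6 h alone, at the same clock time, 26 genes were lower in WT than in atm-1 and 1 was higher, against 4.02% and 4.56% of all genes, with a median of -0.32 where all genes had -0.03. These arrays are part of the preceding contrast, so both results share them. AT1G13650 (-1.82 (adjusted p = 0.00012)), AT3G18280 (-1.55 (adjusted p = 9.26e-09)) and AT1G73600 (-1.39 (adjusted p = 0.00636)) differed most, and AT5G19240 was the gene higher in WT (2.12 (adjusted p = 1.41e-07)). AT3G18280 read 6.49 and 6.34 in WT and 7.88 and 8.05 in atm-1, without overlap. Among the annotated genes GH9B8 (-1.12), MSRB6 (-0.98), VTC4 (-0.71), AOP1 (-0.55), GH9C2 (-0.52), NPF6.4 (-0.52) and PPR596 (-0.37) were lower in WT. The count fell from 27 to 16 genes without atm-1 HZE 6 h replicate 1. The shoot sum was 20230 to 20777 in WT and 22329 to 23867 in atm-1 at this time, and the root sum 3291 to 3533 and 3813 to 4314.

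Away from HZE, fewer of the genes passed the test between the genotypes. In unirradiated seedlings of day 2, 2 genes were lower in WT and 1 higher, against 0.21% and 0.457% of all genes. These were AT1G47400 (-1.90 (adjusted p = 0.000224)), AT3G18280 (-0.71 (adjusted p = 0.0158)) and AT1G70985 (0.84 (adjusted p = 0.0186)), and the median over the 86 was -0.04. At gamma 1.5 h 6 were lower in WT and 8 higher, against 4.46% and 4.5%, with a median of 0.02. AT5G42760 was the highest in WT at this time (9.77 and 10.21 against 8.41 and 8.28, a change of 1.65 (adjusted p = 1.13e-05)), followed by AT2G19650 (1.42) and AT3G44450 (0.96), and AT4G12980 the lowest (-1.17 (adjusted p = 0.000511)), followed by AT3G18280 (-0.94) and AT4G26010 (-0.92). None of the annotated genes passed the test in either of these comparisons, in which the MSRB6 changes were 0.05 on day 2 and 0.01 at gamma 1.5 h. Leaving out 1 array moved the gamma 1.5 h count from 14 to 21 (WT replicate 1) or to 8 (replicate 2 of WT, or of atm-1), and the day 2 count from 3 to 1 (WT replicate 2, or atm-1 replicate 1). Whether the genotype difference at HZE 6 h is larger than that at gamma 1.5 h or on day 2 was not tested.

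At 12 h after irradiation HZE (1:09 am) and gamma (8:40 pm) fell on either side of midnight. In WT 29 genes were lower after HZE and 9 higher, against 9.85% and 8.88% of all genes, with a median of -0.14. In atm-1 12 were lower and 6 higher, against 3.1% and 3.28%, with a median of -0.01. Among these, 9 were lower in both genotypes and 4 higher in both, which is 9 of 29 and 4 of 9 of the WT calls, and 9 of 12 and 4 of 6 of the atm-1 calls. The overlap over all genes was not counted. AT5G15950 was among the lowest in both, at -1.57 (adjusted p = 2.26e-09) in WT and -1.91 (adjusted p = 5.97e-10) in atm-1, as was AT1G73600 at -1.77 (adjusted p = 0.000241) and -1.12 (adjusted p = 0.0435). AT3G44450 changed by -1.65 (adjusted p = 3.23e-07) in WT and -1.06 (adjusted p = 0.000917) in atm-1, and AT1G47400 by -0.75 (adjusted p = 0.0603) and -1.41 (adjusted p = 0.0012). MSRB6 was still low in WT, with 8.80 and 8.50 at HZE 12 h against 10.05 and 10.11, a change of -1.43 (SE 0.14, adjusted p = 2.26e-09), while in atm-1 its change was -0.33 (adjusted p = 0.188). AT5G19240 (2.57 and 0.87) and AT1G65870 (1.15 and 1.05) were higher in both genotypes, as was AT4G12980 (0.89 and 0.80). AT3G44970 was higher in WT at 0.98 (adjusted p = 0.000934) and read 0.40 (adjusted p = 0.383) in atm-1. The atm-1 count rested on each array, since leaving out any 1 of the 4 lowered it from 18 to between 7 and 11 genes, and with array weights it was 28. Both measured root genes were lower in WT, with sums of 7498 to 7596 against 8847 to 10009, and 0 of 2 passed the test in atm-1 (8026 to 8438 against 8175 to 8495). The shoot sums were 29945 to 30468 against 27936 to 28864 in WT and 30899 to 31500 against 27360 to 28458 in atm-1, and the part of either was not tested. The gamma 12 h arrays are the same as in the evening comparison, clock time differs by hours, and radiation and clock time cannot be told apart here.

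Within gamma, evening (12 h) and morning (1.5 h) were compared to show how the set behaves over the same day without HZE. In WT 29 genes were lower in the evening and 29 higher, against 15.6% and 14.2% of all genes, and in atm-1 25 were lower and 21 higher, against 12.6% and 12.1%, with medians of 0.07 and 0.01. The calls thus ran in both directions, in shares of 33.7% and 33.7% of the members in WT and 29.1% and 24.4% in atm-1. WT and atm-1 shared 24 genes that fell, 82.8% and 96.0% of their calls, and 18 that rose, 62.1% and 85.7%, with no such count over all genes. AT5G42760 read 9.77 and 10.21 in the morning and 5.90 and 5.74 in the evening in WT, a change of -4.17 (adjusted p = 9.02e-15). AT1G65870 changed by -3.98 in WT and -3.62 in atm-1 on the log2 scale, and AT2G19650 by -2.82 and -1.41. AT3G44970 (-2.75 and -2.48) and NPF6.4 (-2.60 and -2.46) also fell in both. Of the annotated genes BGLU40 fell in both genotypes (-2.07 and -1.67), as did PPR596 (-0.61 and -0.63) and NDB2 (-0.59 and -0.95), while AOP1 rose (0.97 and 0.86), as did GSTU27 (0.71 and 0.59). AT3G61820 (2.54 and 1.31), AT1G54820 (2.52 and 1.83), AT4G28780 (1.35 and 1.65) and AT1G27480 (0.78 and 1.42) rose in both, and AT4G26010 rose in WT (1.95 (adjusted p = 2.43e-06)), with 0.10 (adjusted p = 0.867) in atm-1. The root sum was 8847 to 10009 at gamma 12 h against 4516 to 5819 at gamma 1.5 h in WT (2 of 2 genes higher) and 8175 to 8495 against 5971 to 6061 in atm-1 (1 of 2). The shoot sum was 27936 to 28864 against 31663 to 32601 in WT and 27360 to 28458 against 30713 to 31592 in atm-1, with 1 of 3 genes lower in each, and the part of either in the counts was not tested. Hours after irradiation and clock time cannot be told apart in this contrast.

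**Figure D4:**
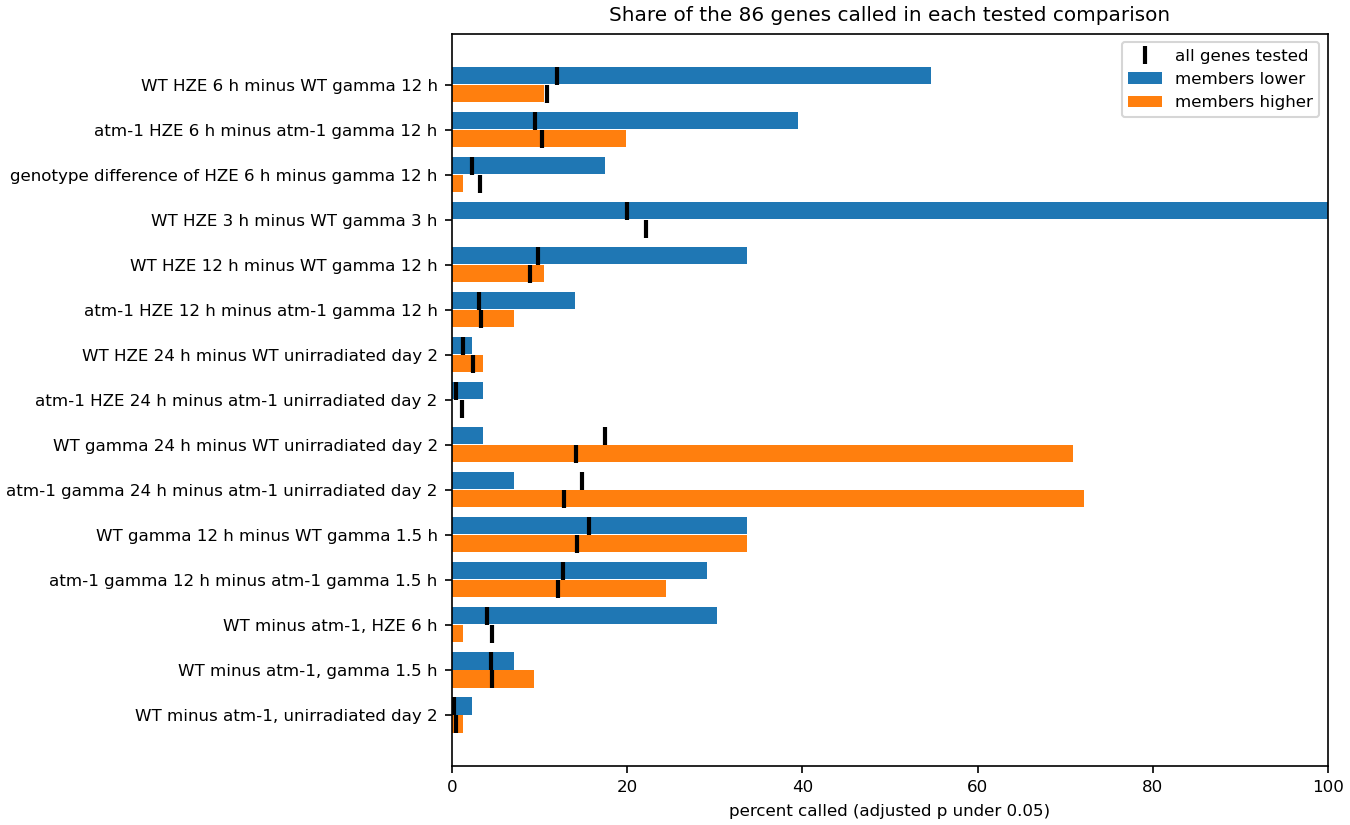
Percent of the 86 genes lower (blue) and higher (orange) at an adjusted p under 0.05 in each of the 15 tested comparisons, with black marks for the same percent over all 13355 genes. At WT HZE 3 h all genes of the set were lower against a background of 20.0%, and at gamma 24 h most were higher than unirradiated day 2 in both genotypes, against 14.1% and 12.8%.

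On day 2 few genes of the set passed the test after HZE, while after gamma most stood above the day 2 control, which itself lay below day 1. At HZE 24 h (1:09 pm) 2 genes were lower and 3 higher than in unirradiated WT of day 2 (9:15 am), against 1.21% and 2.39% of all genes, and in atm-1 3 were lower and 0 higher, against 0.419% and 1.13%. The medians were -0.01 in WT and -0.07 in atm-1. MSRB6 was lower in both, with 8.67 and 8.77 against 9.21 and 9.26 in WT (-0.52, adjusted p = 0.027) and 8.59 and 8.52 against 9.43 and 8.93 in atm-1 (-0.62, adjusted p = 0.00873). RALFL24 was lower in WT (-0.49), and AT2G33180 (-0.59) and PPR596 (-0.48) in atm-1, while AT5G19240 (1.06), GH9C2 (0.98) and AT1G06830 (0.95) were higher in WT. Leaving out 1 array lowered the count of calls from 5 to 2 or 3 in WT, for each of its 4 arrays, and from 3 to 0 in atm-1 without HZE 24 h replicate 1.

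At gamma 24 h (8:40 am) 61 genes were higher and 3 lower in WT than in unirradiated seedlings of day 2, against 14.1% and 17.4% of all genes, and in atm-1 62 were higher and 6 lower, against 12.8% and 14.8%. The medians were 0.85 in WT and 0.83 in atm-1 where those of all genes were -0.004 and -0.019, and 36 genes in WT and 34 in atm-1 were higher by at least 2-fold. WT and atm-1 shared 56 of the higher genes, 91.8% and 90.3% of their calls. Neither this overlap nor the 2-fold counts were taken over all genes, so they are not shown to be particular to the set. The HZE and gamma contrasts at 24 h use the same unirradiated arrays, so their values are given side by side only. Minus day 1, the median of these day 2 controls was -0.68 in WT and -0.56 in atm-1. That of gamma 24 h was 0.14 and 0.25, so a rise over day 2 is not a rise of the same size over day 1. In AT1G73600, for example, WT day 2 lay at -2.25 from day 1 and WT gamma 24 h at 1.94. AT1G73600 read 8.58 and 9.03 at gamma 24 h and 4.85 and 4.37 on day 2 in WT, a change of 4.19 (SE 0.34, adjusted p = 3.61e-11). AT5G42760 changed by 3.82 in WT and 3.88 in atm-1, AT1G06000 by 3.67 and 3.42, and AT1G04770 by 3.37 and 4.12. These last 3 genes were thus at least 8-fold higher in both genotypes. GH9C2 read 10.02 and 10.25 against 7.87 and 7.69 in WT and 10.08 and 10.19 against 8.16 and 8.09 in atm-1, changes of 2.36 (adjusted p = 4.42e-13) and 2.01 (adjusted p = 1.61e-11). BGLU40 (2.65 and 2.43), NPF6.4 (1.93 and 1.68), GH9B8 (1.82 and 1.39), GTR1 (1.74 and 1.16), GT72B1 (1.37 and 1.39), PPR596 (1.34 and 1.37), CDI (1.12 and 1.82), NDB2 (0.91 and 1.05), GSTU27 (0.86 and 1.25) and TAAC (0.66 and 0.55) were higher in both. MSRB6 (-0.56 and -0.65), AT1G54820 (-1.71 and -1.40) and AT3G56080 (-0.63 and -0.57) were lower in both, and AT4G26010 in atm-1 (-0.84). VTC4 and AOP1 did not pass the test in either genotype, with WT changes of 0.06 and -0.06. The shoot sums of the gamma 24 h and day 2 arrays overlapped in WT (30893 to 31566 and 30865 to 32190), and the root sums were 7895 to 8335 and 6722 to 6917; their part was not tested.

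**Figure D5:**
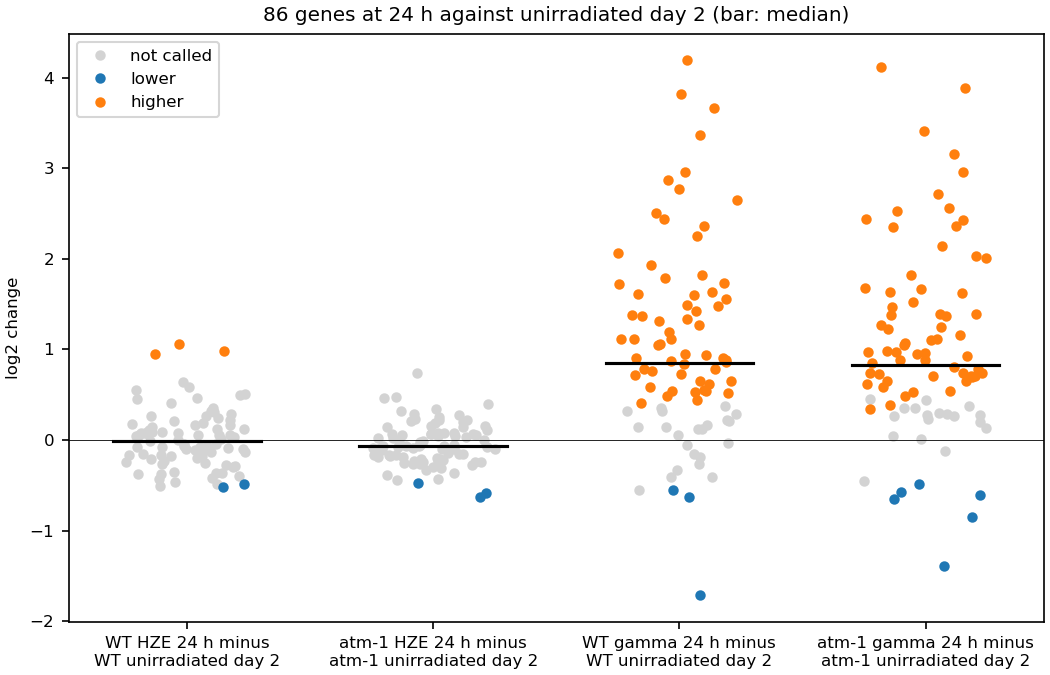
Log2 change of each of the 86 genes (points) at 24 h against unirradiated day 2 of the same genotype, after HZE (left pair) and gamma (right pair), with the median as a bar and called genes in colour. The HZE medians lie at -0.01 and -0.07, and the gamma medians at 0.85 (61 genes higher) and 0.83 (62 higher).

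Gene lists of related functions, none of which holds a member, were read beside the set, though few of their genes had a usable probe set. These were 6 of 15 for sugar starvation, 3 of 25 for aliphatic glucosinolates, 6 of 20 for flavonoids, 3 of 16 for sulfate assimilation, 3 of 19 for growth hormones, 2 of 18 for nitrate, 1 of 18 for the cell wall, 2 of 22 for root and 3 of 14 for shoot markers. Their counts stand beside the shares of all genes given above, 20.0% lower and 22.1% higher at WT HZE 3 h. The 6 measured genes of sugar starvation, which rise when carbon supply fails, moved against it: all 6 were higher at WT HZE 3 h than at gamma 3 h, with a median of 3.63. MCCA, a subunit of the carboxylase of leucine breakdown, read 12.83 and 12.92 after HZE against 7.27 and 8.71 after gamma, a change of 4.88 (SE 0.27, adjusted p = 7.13e-16). IVD, of the same pathway, changed by 3.91, and AKINBETA1, which belongs to the SnRK1 kinase that senses low energy, by 4.33. At gamma 24 h 5 of the 6 were lower than on day 2 in WT and 6 in atm-1, with medians of -1.31 and -1.24. The opposite course of these genes and of the set was not tested for a cause. The 3 measured aliphatic glucosinolate genes, 2 of which met the thresholds and were left out by name, were all lower at WT HZE 3 h (median -2.60), with BCAT4 at -2.60, GSTU20 at -4.91 and AT2G31790 at -2.11. At HZE 6 h against gamma 12 h 3 of them were lower in WT and 2 in atm-1.

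Of 6 flavonoid genes 4 were lower at WT HZE 3 h (median -1.29), among them CHIL (-3.57) and the glycosyltransferase UGT78D1 (-2.55), and 3 were higher at gamma 24 h in each genotype. Of 3 sulfate assimilation genes 2 were lower, APS3 by -1.06 and SIR, sulfite reductase, by -0.69, while APS4 was at 0.38. The 3 growth hormone genes were higher at WT HZE 3 h (median 1.03) and at HZE 6 h in both genotypes (medians 2.94 and 2.15), against 10.8% of all genes in WT and 10.2% in atm-1. EXO, a brassinosteroid-responsive gene, was higher at HZE 6 h by 3.40 (adjusted p = 1.53e-12) in WT and 0.73 (adjusted p = 0.023) in atm-1, IAA29, an auxin-responsive repressor, by 2.94 and 3.02, and HAT2 by 1.97 and 2.15. Of 2 measured genes of the nitrate list, AT1G68670 was higher at HZE 3 h (0.64) and AT1G25550 did not pass the test (0.24), and the 1 measured cell wall gene, COB, did not pass either (-0.27). None of the 13 genes of the epidermis list had a usable probe set.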

How the data were processed

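Total RNA from whole seedlings was hybridised to single-colour arrays, and the authors deposited a log2 value for each probe set. GCOS 1.2, RMA and affy are the tools that the submitters' processing notes name, and the settings are not given in the sources used here. RMA fits background and scale over arrays and compresses low signals, so the deep falls may be understated. The values were used as deposited. Of 22810 probe sets, 64 controls were left out; 13513 had 1 gene, 503 several and 8730 none in the platform annotation, and 13436 were found in a RefSeq gene table of TAIR10.1, which gave names, chromosomes and neighbours. For 147 genes with several probe sets the one with the highest mean stood for the gene, which left 13355. No expression filter was applied.

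One linear model with a mean per group was fitted to the 44 arrays (limma 3.58.1, R 4.3.3, lmFit and eBayes, 22 residual and 7.82 prior degrees of freedom), and each contrast was adjusted by Benjamini-Hochberg over 13355 genes. A call is an adjusted p under 0.05, and SE is that of the model. The number of arrays limits the precision. The members, gene lists and comparisons were chosen with earlier results of these data known. Named are all members with a symbol, the 10 deepest falls, up to 3 called members per direction in each comparison, the 3 genes on each side of the threshold, and up to 4 genes per list.

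Replicate numbers showed no general pairing of samples: over 231 pairs of groups the correlation of deviations ran from -0.19 to 0.26 (median 0.02), and 46 exceeded 0.1. Pairs within the HZE groups, irradiated in 2 runs, were not looked at apart, so pairing there is not excluded. Tested on simulated data with 200 changed genes, the model recovered 69% of 1.5-fold and 97% of 2-fold changes for WT HZE 6 h minus gamma 12 h, and 32% and 82% for its genotype difference. Alternatives covered the replicate block, 2 further normalisations, a variance trend, array weights, a filter on dim probe sets, the mean of probe sets, and leaving out each array. Promoter and protein sequences were not analysed here.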

Additional observations from a re-analysis of the deposited data

Results flagged for a closer look

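The change from gamma 12 h to HZE 6 h differed between WT and atm-1 in 16 of the 86 genes, by limma's test of the difference itself (adjusted p under 0.05 over 13355 genes). The difference is the log2 change of WT less that of atm-1, and each of the 16 had 2 arrays in each of the 4 groups. It was negative, meaning a deeper fall or a smaller rise in WT, in AT1G13650 (-1.64), AT3G48460 (-1.42), MSRB6 (-1.40), AT3G18280 (-1.29), AT3G20370 (-1.15), AT3G61820 (-1.08), AT1G06830 (-1.04), AT5G45950 (-1.0), GH9C2 (-0.94), AT5G13400 (-0.89), AT2G41950 (-0.83), AOP1 (-0.83), AT4G24780 (-0.80), AT1G19450 (-0.76) and PPR596 (-0.70). It was positive in AT5G19240 (2.21).

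Among the 15 negative differences, the WT and atm-1 changes had opposite signs in AT3G48460 (-0.59 and 0.83), AT3G61820 (-0.86 and 0.21), AT5G45950 (-0.63 and 0.38), AT5G13400 (-0.14 and 0.76), AT2G41950 (-0.65 and 0.18), AOP1 (-0.74 and 0.09) and AT4G24780 (-0.37 and 0.43). In MSRB6, AT3G18280, AT3G20370, AT1G06830 and GH9C2 both genotypes were below gamma 12 h, and in AT1G13650, AT1G19450 and PPR596 both were above it. AT5G19240 was above it in both.

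The calls differed in how they held over 16 alternatives: AT5G19240 kept its call in 16, AT1G13650 in 8, AT1G06830 in 10 and AOP1 in 11. No cause of these differences was tested.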

How the results depend on the processing

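Of 184 counts of called members recomputed under alternatives, 169 stayed within 1.5 times the reported count and 15 did not. With array weights, 28 genes were called at atm-1 HZE 12 h minus gamma 12 h (17 lower, 11 higher) in place of 18; the cause was not tested. The other 14 came from leaving out 1 array, which also leaves 1 array in a group that is assumed to vary like the others. The ranges were 47 to 52 for the WT evening contrast (56 reported), 38 to 42 for atm-1 (51), 12 to 16 for its genotype difference (16), 86 to 86 at WT HZE 3 h (86), 29 to 32 at HZE 12 h in WT (38) and 7 to 11 in atm-1 (18). They were 2 to 3 at HZE 24 h in WT (5) and 0 to 2 in atm-1 (3), 57 to 60 and 59 to 63 at gamma 24 h (64 and 68), and 48 to 51 and 39 to 42 for gamma 12 h minus gamma 1.5 h (58 and 46). Between the genotypes they were 16 to 21 at HZE 6 h (27), 8 to 21 at gamma 1.5 h (14) and 1 to 4 on day 2 (3). The counts past 1.5 times came without any of the 4 arrays at atm-1 HZE 12 h (8, 11, 11 and 7) and at WT HZE 24 h (2, 3, 2 and 2), without atm-1 HZE 24 h replicate 1 (0), without atm-1 HZE 6 h replicate 1 (16), without replicate 2 of WT or of atm-1 gamma 1.5 h (8 each), and without WT day 2 replicate 2 or atm-1 day 2 replicate 1 (1 each). With the replicate number as a block, the counts moved by at most 1 gene and the WT evening contrast stayed at 56 genes; no pairing is shown by the data.

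The set itself held 159 genes with the threshold lowered by 0.25 and 58 with it raised by 0.25, 106 after cyclic loess (86 shared), 96 after quantile normalisation (83 shared), 86 with the mean of probe sets, and 76 to 95 when 1 array was left out. Without the atm-1 gamma 6 h array of low median, an alternative chosen after seeing the data, 95 genes qualified, of which 95 were lower at WT HZE 3 h, 50 lower and 12 higher in the WT evening contrast, and 35 lower and 21 higher in that of atm-1. Single genes were followed for the named members only, in 630 pairs of a gene and a comparison. Over their 7728 values, 7485 stayed called or stayed not called, 167 lost the call and 76 gained it. The members not named were not counted here. Among named genes called in the main fit 0 reversed direction. For genes not called there, changes of direction were not counted. In the simulation, changes under about 2-fold were partly missed with 2 arrays a group. A count of promoter motifs was not run.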
